A study of Mus musculus with 16 samples.

Results

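The genes described here carry the presentation of peptides on major histocompatibility complex (MHC) class I molecules. They were the rows of the deposited gene lists with the symbols H2-K1, H2-D1, H2-Q4, H2-Q6, H2-Q7, H2-T22, H2-T23, B2m, Tap1 and Tap2, 10 of 32285 genes. They were read in single nuclei of the hippocampus of 16 female mice aged 9 months, in 4 groups of 4 mice. Per the labels, each mouse was Ch25h+/+ or Ch25h-/- and, crossed with that, either Tau+ or Tau-, and each of the 4 combinations is a group. Ch25h encodes cholesterol 25-hydroxylase, an enzyme that makes an oxysterol from cholesterol and is itself induced by interferons in myeloid cells. The labels do not say which tau line was used, which promoter drives the transgene or which part of Ch25h is deleted, and no treatment is given for any group. Sex, age, tissue and library kit (version 3.1 of the 10x Genomics 3' chemistry) were shared by all groups. Replicates are numbered in the order of deposition, and the numbers pair no mice. Each library is taken as 1 mouse, as the labels give it. The p-values therefore rest on the spread between mice of the same group, fitted as 1 spread per gene over all 4 groups unless stated otherwise.

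MHC class I molecules show short peptides, made in the cytosol by proteasomes, to CD8 T cells and to receptors on natural killer and myeloid cells. Each molecule is a heavy chain paired with beta-2-microglobulin, the product of B2m. H2-K1 and H2-D1 encode the classical heavy chains. H2-Q4, H2-Q6, H2-Q7, H2-T22 and H2-T23 encode nonclassical chains, of which the product of H2-T23, Qa-1, is read by a receptor of natural killer cells. Tap1 and Tap2 encode the subunits of the transporter that carries peptides into the endoplasmic reticulum, where the chains are loaded. Transcription is driven by NLRC5 through a composite promoter module and is raised by interferons through interferon-stimulated response elements and by NF-kappaB through kappaB sites. In the healthy brain most neurons hold little class I, while endothelial cells and macrophages hold more.

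In the GENCODE annotation of GRCm38 (mm10), 9 of the 10 genes lie on chromosome 17, between 33996017 and 36042747. B2m lies on chromosome 2 at chr2:122147686-122153083. H2-K1 lies at chr17:33996017-34000347 on the minus strand, Tap1 at chr17:34187553-34197225 and Tap2 at chr17:34203527-34216321. H2-D1 lies at chr17:35262730-35267499, H2-Q4 at chr17:35379617-35385290, H2-Q6 at chr17:35424850-35430055 and H2-Q7 at chr17:35439155-35443773. H2-T23 at chr17:36029773-36032855 and H2-T22 at chr17:36037128-36042747 are on the minus strand, and the other members are on the plus strand. The kit reads transcript 3' ends, and part of the last 500 bases of some of these genes is found in other genes too. Of the stretches of 90 bases in those ends, 26.5% were shared for H2-T22, 13.4% for H2-T23, 10.9% for H2-Q6 and 9.49% for H2-Q4, so the counts of these 4 genes are uncertain by that overlap. No stretch was shared for the other 6 genes.

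Several of these genes moved together, so their promoters are shown. RefSeq promoter sequences (GRCm38.p6, 250 bases before to 50 after each start) were found for 9 of the 10 members, and none for Tap2. The windows of 60 bases printed here lie before the RefSeq start site. That of H2-D1 lies inside the gene as GENCODE places it, since the GENCODE start is further upstream, and the other 6 lie outside their genes in both annotations. Capitals mark a kappaB match and an interferon-stimulated response element match, each sequence being written 5' to 3' on the strand of its gene:
H2-K1 (chr17:34000409-34000468): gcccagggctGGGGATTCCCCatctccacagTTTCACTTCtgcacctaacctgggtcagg
H2-D1 (chr17:35262913-35262972): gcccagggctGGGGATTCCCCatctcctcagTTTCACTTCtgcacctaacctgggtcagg
H2-Q4 (chr17:35379433-35379492): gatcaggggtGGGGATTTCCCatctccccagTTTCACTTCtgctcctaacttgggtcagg
H2-Q6 (chr17:35424667-35424726): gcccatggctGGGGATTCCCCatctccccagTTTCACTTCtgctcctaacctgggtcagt
H2-Q7 (chr17:35439012-35439071): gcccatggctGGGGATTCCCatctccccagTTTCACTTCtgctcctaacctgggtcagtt
H2-T22 (chr17:36042906-36042965): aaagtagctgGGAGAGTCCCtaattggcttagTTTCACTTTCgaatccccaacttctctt
B2m (chr2:122147538-122147597): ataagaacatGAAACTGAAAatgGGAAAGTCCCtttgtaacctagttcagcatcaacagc

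The windows of H2-D1, H2-Q4 and H2-Q6 equalled that of H2-K1 at 59, 53 and 56 of 60 bases, compared position by position with no gap or shift. By the same count H2-Q7 equalled it at 29 bases, H2-T22 at 17 and B2m at 13. The count for H2-Q7 is low because its marked kappaB stretch is 1 base shorter, which shifts all bases after it. Apart from that base and the end of the window, the H2-Q7 window reads as that of H2-Q6. In the H2-K, H2-D, H2-Q and H2-T22 windows the kappaB match comes first and the response element after it, and in B2m the order is the other way round. The response element was searched as GAANNGAAA and as GAAA and GAAA with any 2 bases between them, on both strands, and these forms were chosen after the promoters had been read. The first form was found in 5 of the 9 promoters (7.52% of 32851 promoters of the same length hold it) and the second in 3 (3.44%), so that 8 held one of them (10.4%). The kappaB consensus was found in 7 (8.46%), and both kinds of match in the same 7 (0.724%). In H2-K1, H2-D1, H2-Q4 and H2-Q6 it matched at 2 positions that overlap by all but 1 base. The Y box CCAAT was found in 9 of the 9 (37.4%) and the X2 box core TGACG in 7 (20.8%). The Tap1 promoter held neither the response element nor the kappaB match, and that of H2-T23 held no kappaB match. A match is a description of letters only.

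Nuclei were kept at 500 or more UMIs (unique molecular identifiers, each standing for 1 captured transcript), 300 or more genes and at most 5% mitochondrial UMIs, which left 147873. Of these, 11045 were removed as probable doublets. The remaining 136828 nuclei, 7601 to 10567 per library, came from libraries of 51270831 to 84870650 UMIs. All 147873 nuclei, probable doublets included, were clustered without the genes of the class I pathway and named by markers into 15 classes. Of the 136828 kept, 9818 were left unnamed. Between 8 and 36 barcodes were shared by any pair of libraries. Libraries 1 and 2 of each group stood apart from libraries 3 and 4. Barcodes under 100 UMIs, which hold free RNA, carried 2.06 to 6.21% of the UMIs in the former and 6.39 to 8.64% in the latter, and the first principal component separated 15 of 16 libraries along this line in microglia, 16 of 16 in 6 other classes and only 9 of 16 in inhibitory neurons and Cajal-Retzius cells. Ch25h UMIs over all nuclei were 16 to 36 in Ch25h+/+ Tau+, 8 to 12 in Ch25h+/+ Tau-, 12 to 30 in Ch25h-/- Tau+ and 10 to 25 in Ch25h-/- Tau- libraries. These ranges overlapped between the genotypes. Summed by group, Ch25h UMIs in microglia were 33 in Ch25h+/+ Tau+ against 7 in Ch25h-/- Tau+, and 0 in both Tau- groups. In the excitatory neurons the counts ran against the label. In CA pyramidal neurons they were 3 in Ch25h+/+ Tau+ and 2 in Ch25h+/+ Tau-, against 15 in Ch25h-/- Tau+ and 14 in Ch25h-/- Tau-. In the same order they were 0 and 2 against 12 and 7 in dentate gyrus granule neurons and 8 and 3 against 22 and 16 in other excitatory neurons, while inhibitory neurons held 28 and 26 against 22 and 23. Since the deleted part is not given, reads of the 3' end check nothing about the label. Prnp, whose promoter is used in several tau models, was measured at 106 to 152 CPM (counts-per-million UMIs) in Tau+ and 62.1 to 103 CPM in Tau- libraries over all nuclei.

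The class I genes were highest, by their sum, in endothelial cells, border-associated macrophages and microglia, and their sum was lowest in neurons. Levels are CPM over all UMIs of a class in a library, given as the mean ± SD over the libraries with at least 10 nuclei of that class. Summed over the 10 genes, endothelial nuclei stood at 2357 ± 528 CPM (n = 9), border-associated macrophages at 2037 ± 728 (n = 15) and microglia at 663 ± 424 (n = 16). Endothelial cells exceeded border-associated macrophages in 8 of 9 libraries, by a mean of 0.41 on the log2 scale (SD 0.29), so not in every library. The macrophages exceeded microglia in 15 of 15 libraries. Mural cells (258 CPM) and fibroblasts (250 CPM) came next, and microglia exceeded mural cells in 12 of 12 libraries. Fibroblasts exceeded ependymal cells (134 CPM) in 14 of 14 libraries. Astrocytes stood at 117 ± 55.3, oligodendrocyte precursor cells (OPC) at 107, choroid plexus epithelium at 64.5 and oligodendrocytes at 61.8 ± 50.8 CPM. Cajal-Retzius cells followed at 44.8 CPM. The other neurons were lowest, at 18.1 CPM in dentate gyrus granule neurons, 22.4 in CA pyramidal neurons, 28.0 in inhibitory neurons and 29.1 in other excitatory neurons.

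**Figure D1:**
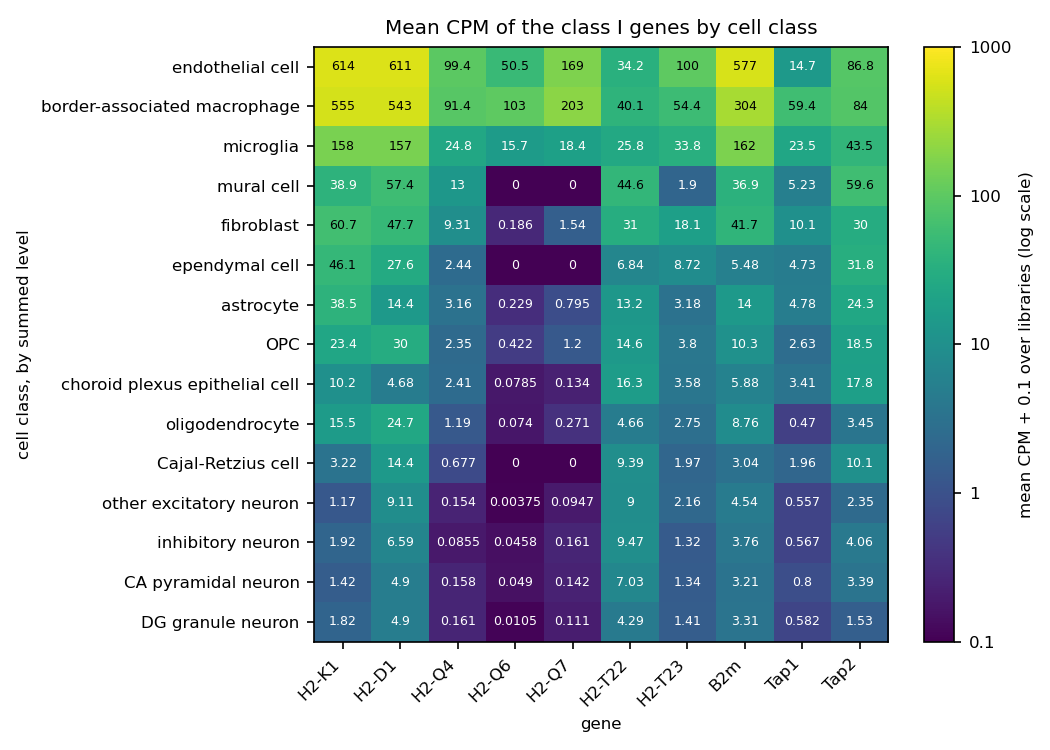
Mean CPM of each gene (columns) in each of 15 cell classes (rows), over the libraries with at least 10 nuclei of the class, with the value printed in each cell and colour on a log scale. Endothelial cells, border-associated macrophages and microglia hold the highest values of H2-K1, H2-D1 and B2m, and neurons the lowest of H2-K1.

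Pooled over the tau states, the classical heavy chains were also highest, by mean, in endothelial cells, border-associated macrophages and microglia. H2-K1 stood at 614 ± 272 CPM in endothelial cells (n = 9), 555 ± 210 in border-associated macrophages (n = 15) and 158 ± 115 in microglia (n = 16). Among the glia it stood at 38.5 CPM in astrocytes, 23.4 in OPC and 15.5 in oligodendrocytes, and each of these exceeded the next in 16 of 16 libraries. The 4 neuron classes other than Cajal-Retzius cells lay between 1.17 and 1.92 CPM. At least 1 H2-K1 UMI was found in 47.7% of border-associated macrophages, 45.2% of endothelial cells, 22.5% of microglia (median depth 1453 UMIs) and 8.83% of astrocytes, against 1.34% of CA pyramidal neurons (median depth 9617 UMIs). The free RNA of barcodes under 100 UMIs could account for 100% of the H2-K1 UMIs of CA, dentate gyrus and other excitatory neurons and 80.2% of those of inhibitory neurons, so H2-K1 in the first 3 of these is at background. In microglia the same share was 2.41%. These means pool the tau states. In Tau- mice alone microglial H2-K1 stood at 73.2 ± 22.4 CPM (n = 8), against 68.7 ± 46.3 in fibroblasts (n = 7), a difference within their spread, and in Tau+ mice at 243 ± 106 against 53.6 ± 15.6 (n = 8 each). H2-D1 stood at 611 ± 181, 543 ± 177 and 157 ± 138 CPM in endothelial cells, border-associated macrophages and microglia, with the tau states pooled again. In Tau- libraries with at least 10 nuclei of the class it ran from 20.7 to 104 CPM in microglia and from 0 to 103 CPM in mural cells. These 2 classes could not be ordered there.

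The remaining genes differed in how widely they were read. B2m stood at 577 ± 252 CPM in endothelial cells and exceeded border-associated macrophages (304 ± 151) in 9 of 9 libraries, and microglia stood at 162 ± 67.3. H2-Q6 and H2-Q7 were the most restricted. H2-Q7 stood at 203 ± 144 CPM in border-associated macrophages, 169 ± 102 in endothelial cells and 18.4 ± 25.7 in microglia, and the class with the next highest mean, fibroblasts, had 4 UMIs in all. The microglial value came from Tau+ mice, at 36.6 ± 25.6 CPM (n = 8). In Tau- mice H2-Q7 had 1 UMI in all microglia and 2 in all fibroblasts, so these classes could not be ordered there. H2-Q6 stood at 103 ± 95.5, 50.5 ± 39.2 and 15.7 ± 20.9 CPM in the same 3 classes, with OPC next at 5 UMIs in all. H2-Q4 ran from 99.4 ± 52.3 CPM in endothelial cells through 24.8 ± 21.7 in microglia to 3.16 ± 3.96 in astrocytes. H2-T23 stood at 100.4 ± 78.9 CPM in endothelial cells, 54.4 ± 44.5 in border-associated macrophages and 33.8 ± 20.8 in microglia. H2-T22 stood at 44.6 ± 34.0 CPM in mural cells, on 0 to 2 UMIs per library, 25.8 ± 13.7 in microglia and 14.6 ± 5.84 in OPC. By mean, border-associated macrophages, endothelial cells and fibroblasts lay between mural cells and microglia. For H2-Q4, H2-T22, Tap1 and Tap2 only some classes are given, and others lay between them. Neighbours in the order of classes did not separate in every library for H2-D1, H2-Q4, H2-Q6, H2-T22, H2-T23, Tap1 or Tap2. Tap1 stood at 59.4 ± 43.3 CPM in border-associated macrophages, 23.5 ± 13.1 in microglia and 4.78 ± 3.71 in astrocytes. Tap2 stood at 86.8 ± 64.5 CPM in endothelial cells, 43.5 ± 11.4 in microglia and 24.3 ± 7.70 in astrocytes.

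In microglia, 8 of the 10 genes rose in Tau+ mice over both Ch25h genotypes, where 5.33% of the 8439 genes tested rose. The classical chains H2-K1 and H2-D1, the nonclassical H2-Q4, H2-Q6, H2-Q7 and H2-T22, B2m and Tap1 were called, and H2-T23 and Tap2 were not. The median log2 fold change over the 10 genes was 1.35, against -0.00 over all genes tested. The genes were tested on UMI counts summed per mouse, with edgeR's quasi-likelihood test and Benjamini-Hochberg adjustment over all genes of the class, and called at an adjusted p under 0.05. The microglia came from 165 to 586 nuclei per library. The count filter asked for enough UMIs in about as many libraries as 1 group holds. H2-Q4, H2-Q6, H2-Q7 and Tap1 reached it only through their Tau+ libraries. Their place in the test thus depended on their Tau+ levels, and their calls are no separate support. The members were also chosen with earlier results of these data known, so 8 of 10 against 5.33% is a description.

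The classical chains were high in the Tau+ libraries, with 1 low library in each Tau+ group. H2-K1 stood at 313, 220, 80.3 and 221 CPM in replicates 1 to 4 of Ch25h+/+ Tau+ and at 402, 234, 135 and 341 CPM in Ch25h-/- Tau+. It stood at 102, 60.6, 73.3 and 62.2 CPM in Ch25h+/+ Tau- and at 106, 63.7, 38.3 and 79.4 CPM in Ch25h-/- Tau-. Replicate 3 of Ch25h+/+ Tau+ lay within the Tau- range, and the other 7 Tau+ libraries lay above it. Over both genotypes the log2 fold change was 1.68 (SE 0.30, edgeR adjusted p = 0.00362).

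H2-D1, the second classical chain, had the same low library. Its levels were 391, 259, 69.2 and 240 CPM in Ch25h+/+ Tau+ and 443, 269, 111 and 296 CPM in Ch25h-/- Tau+. In the Tau- groups they were 104, 50.5, 46.6 and 20.7 CPM (Ch25h+/+) and 79.2, 41.9, 26.8 and 60.1 CPM (Ch25h-/-). Again 7 of the 8 Tau+ libraries exceeded all 8 Tau- libraries. This made a log2 fold change of 2.20 (SE 0.40, edgeR adjusted p = 0.00468).

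B2m, the light chain shared by all these molecules, had the smallest standard error. Its levels were 264, 181, 113 and 242 CPM in Ch25h+/+ Tau+ and 281, 229, 156 and 244 CPM in Ch25h-/- Tau+. Tau- libraries stood at 145, 88.4, 113 and 104 CPM (Ch25h+/+) and at 108, 106, 111 and 108 CPM (Ch25h-/-). The groups overlapped only through replicate 3 of Ch25h+/+ Tau+. B2m rose by 0.94 on the log2 scale (SE 0.15, edgeR adjusted p = 0.000530).

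**Figure D2:**
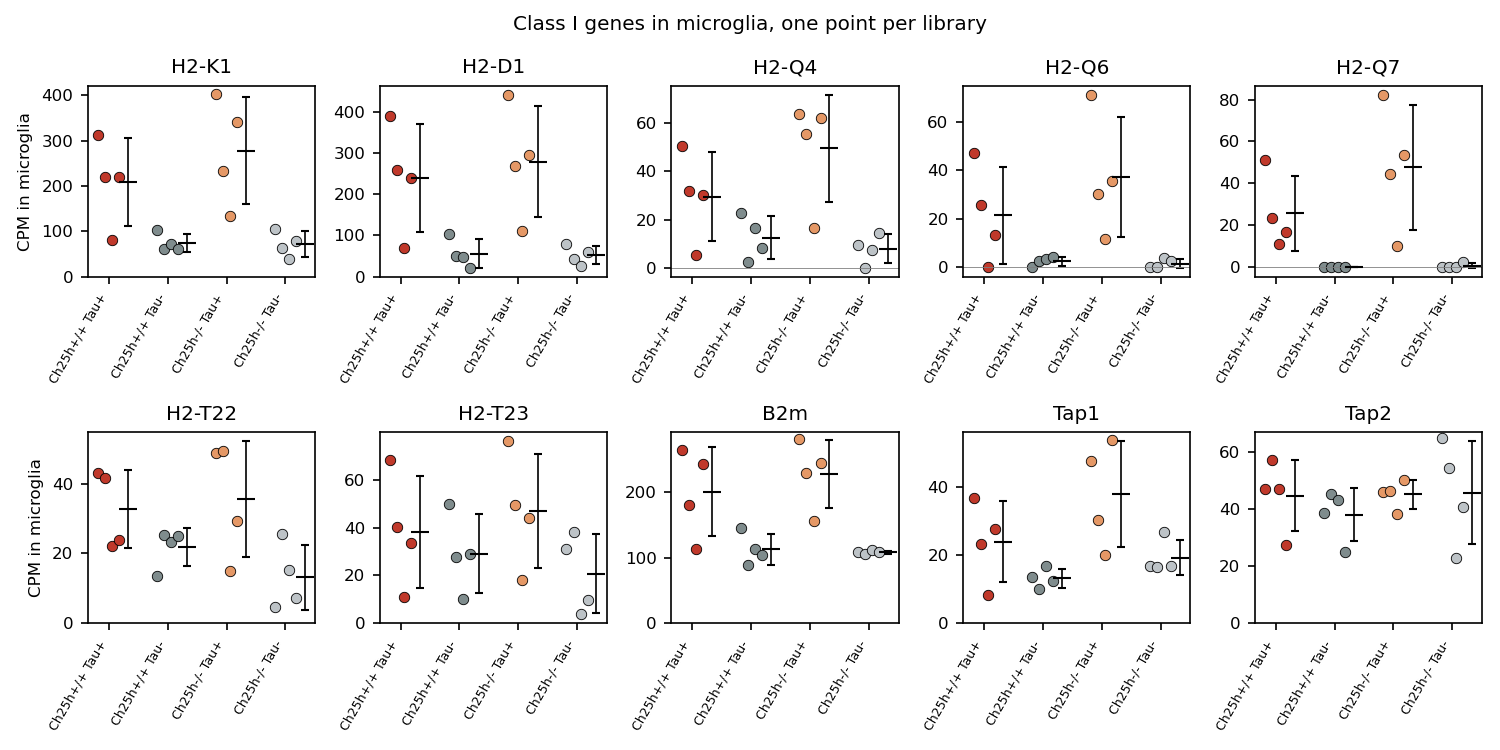
CPM in microglia of each of the 10 genes (panels) by genotype group, 1 point per library, with a bar and whiskers for the mean ± SD of the 4 libraries. H2-Q7 does not overlap between Tau+ (9.97 to 82.4 CPM) and Tau- libraries (0 to 2.41 CPM), while the Tap2 values of all groups overlap.

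Among the nonclassical chains, H2-Q7 separated the tau states completely. It stood at 51.3, 23.2, 11.1 and 16.8 CPM in Ch25h+/+ Tau+ and 82.4, 44.4, 9.97 and 53.6 CPM in Ch25h-/- Tau+. It was at 0 in 7 of the 8 Tau- libraries and at 2.41 CPM, 1 UMI, in replicate 4 of Ch25h-/- Tau-. Groups without overlap and with Tau+ higher were found for 1 of the 10 genes in microglia, and for 0.458% of the 14400 genes with a mean of at least 1 UMI per library. Pooled over libraries, 235 UMIs in Tau+ stood against 1 in Tau-, a ratio of 119 (95% counting interval 21.1 to 4710), with an edgeR adjusted p of 0.00223. Within Ch25h+/+ the 86 UMIs against 0 made it at least 13.3-fold higher, taking 3 counts over the group as the limit of a count of 0. Within Ch25h-/- the ratio was 81.3 (14.4 to 3233). These intervals, like all intervals on UMI counts here, cover counting error only.

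H2-Q6 had the same form with more overlap. It stood at 47.2, 25.7, 0 and 13.2 CPM in Ch25h+/+ Tau+ and at 71.2, 30.3, 11.6 and 35.7 CPM in Ch25h-/- Tau+. Tau- libraries lay between 0 and 4.14 CPM in Ch25h+/+ and between 0 and 3.83 CPM in Ch25h-/-. Its 193 UMIs in Tau+ stood against 5 in Tau-, and the edgeR adjusted p was 0.00455. Within Ch25h+/+ the pooled ratio was 11.9 (3.93 to 59.0), and within Ch25h-/- it was 31.7 (8.57 to 264).

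H2-Q4 stood at 50.3, 31.8, 5.54 and 29.99 CPM in Ch25h+/+ Tau+ and 63.7, 55.5, 16.6 and 61.7 CPM in Ch25h-/- Tau+. It stood at 22.7, 2.53, 16.7 and 8.29 CPM in Ch25h+/+ Tau- and 9.61, 0, 7.66 and 14.4 CPM in Ch25h-/- Tau-. Both replicates 3 of the Tau+ groups fell within the Tau- range. Its log2 fold change was 1.98 (SE 0.48, edgeR adjusted p = 0.0148).

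H2-T22 and H2-T23 lie close together on the chromosome and gave different calls, without a test of the difference between them. H2-T22 stood at 43.0, 41.5, 22.1 and 23.99 CPM in Ch25h+/+ Tau+ and 48.7, 49.4, 15.0 and 29.2 CPM in Ch25h-/- Tau+. Its Tau- levels were 13.6, 25.3, 23.3 and 24.9 CPM (Ch25h+/+) and 4.803, 25.5, 15.3 and 7.22 CPM (Ch25h-/-). H2-T22 rose with a log2 fold change of 1.01 (SE 0.30, edgeR adjusted p = 0.0322), and 3 of the 8 Tau+ libraries lay within the Tau- range. The call was lost without any 1 of 8 of the 16 libraries, with a log2 fold change of 0.85 to 1.01 and an adjusted p of up to 0.0784. These were replicates 1 and 2 of Ch25h+/+ Tau+, replicate 1 of Ch25h+/+ Tau-, replicates 1 and 2 of Ch25h-/- Tau+ and replicates 1, 3 and 4 of Ch25h-/- Tau-. H2-T23 ran from 11.1 to 68.1 CPM in Ch25h+/+ Tau+, 18.3 to 76.2 in Ch25h-/- Tau+, 9.99 to 49.9 in Ch25h+/+ Tau- and 3.83 to 38.2 in Ch25h-/- Tau-. With a log2 fold change of 0.72 (SE 0.40, edgeR adjusted p = 0.347) it was not called, and its interval of -0.08 to 1.51 holds the fold change of H2-T22.

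The transporter subunits also gave different calls, again without a test of their difference. Tap1 stood at 36.7, 23.2, 8.30 and 27.6 CPM in Ch25h+/+ Tau+ and 47.4, 30.3, 19.9 and 53.6 CPM in Ch25h-/- Tau+. It stood at 13.6, 10.1, 16.7 and 12.4 CPM in Ch25h+/+ Tau- and 16.8, 16.4, 26.8 and 16.8 CPM in Ch25h-/- Tau-. The log2 fold change of Tap1 was 0.97 (SE 0.27, edgeR adjusted p = 0.0231). The call was lost without replicate 1 of Ch25h+/+ Tau+, replicate 2 of Ch25h+/+ Tau-, replicate 1 or 4 of Ch25h-/- Tau+ or replicate 2 of Ch25h-/- Tau-, with an adjusted p of up to 0.0768 and a log2 fold change of 0.83 to 0.93. Tap2 stood at 47.2, 57.4, 47.1 and 27.6 CPM in Ch25h+/+ Tau+ and 46.2, 46.4, 38.2 and 50.4 CPM in Ch25h-/- Tau+. Its Tau- levels were 38.6, 45.5, 43.3 and 24.9 CPM (Ch25h+/+) and 64.8, 54.6, 22.97 and 40.9 CPM (Ch25h-/-). The log2 fold change of Tap2 was 0.04 with a 95% interval of -0.34 to 0.41 (edgeR adjusted p = 0.957), and its sign turned in 6 alternative settings.

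**Figure D3:**
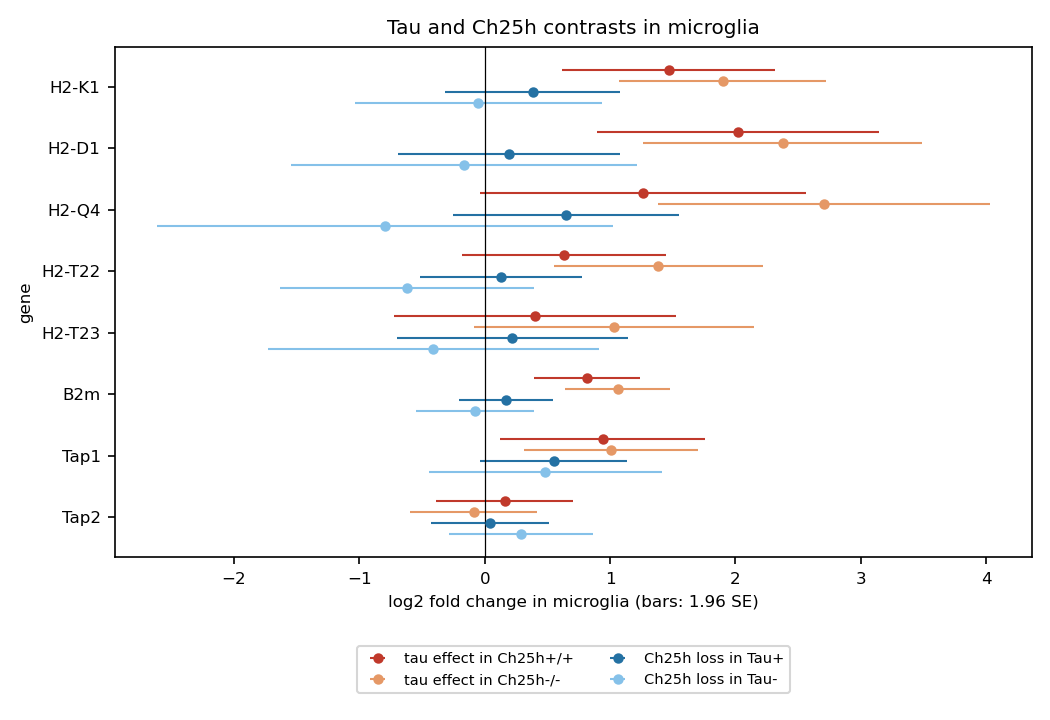
Log2 fold changes in microglia (points, with bars for the 95% interval) for the tau effect in each Ch25h genotype and for Ch25h loss in each tau state. H2-Q6 and H2-Q7 are left out because their fitted values rest on groups near 0. The tau effects of H2-K1 (1.47 and 1.90) and H2-D1 (2.02 and 2.38) lie above 0, and the intervals of Ch25h loss in Tau+ include 0 for each gene drawn.

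Within one Ch25h genotype, fewer of these genes passed. Here 4 mice were compared with 4 under the spread shared by all 4 groups, with no term for the set of libraries that stood apart. Fits of only the 2 groups compared, which use the spread of those groups alone, are given with the other settings. In Ch25h+/+ microglia 1 of 10 rose (1.48% of genes did), B2m, with a log2 fold change of 0.82 (SE 0.22, edgeR adjusted p = 0.0468). H2-K1 (log2 1.47, adjusted p = 0.101), H2-D1 (2.02, adjusted p = 0.0904) and H2-Q7 (adjusted p = 0.0614) were not called. In Ch25h-/- microglia 4 of 10 rose (1.16% of genes did). These were B2m (log2 1.06, edgeR adjusted p = 0.0183), H2-Q7 (adjusted p = 0.0312), H2-K1 (1.90, adjusted p = 0.0447) and H2-Q6 (adjusted p = 0.0456), while H2-Q4 (2.71, adjusted p = 0.0570) and H2-D1 (2.38, adjusted p = 0.0591) were not called. No member was called in another class within 1 genotype, by edgeR without a term for the set of libraries that stood apart, which makes 1 and 4 calls of 65, where 0.154 and 0.101% of all tests in these classes were called higher. The B2m call in Ch25h+/+ held only without replicate 3 of Ch25h+/+ Tau+ or replicate 1 or 3 of Ch25h-/- Tau+, and was lost without any other library, with an adjusted p of up to 0.189 and a log2 fold change of 0.65 to 0.98. In Ch25h-/-, leaving out 1 library ended the call of H2-K1 in 13 of 16 cases (log2 1.67 to 2.11, adjusted p up to 0.152), of H2-Q6 in 12 (adjusted p up to 0.162) and of B2m (adjusted p up to 0.0881) and H2-Q7 (adjusted p up to 0.156) in 6 each.

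The low replicate 3 libraries belong to the set of libraries that stood apart, so values within each set are given. The labels name no such set, and it was recognised from the background and principal components of these same libraries. Calls made with it as a term are therefore those of an alternative fit and no independent support. Among replicates 1 and 2, mean microglial H2-K1 was 292 CPM in Tau+ and 83.0 in Tau-, and among replicates 3 and 4 it was 194 and 63.3 CPM. The same means were 341 against 69.0 and 179 against 38.6 CPM for H2-D1, and 239 against 112 and 189 against 109 CPM for B2m. Replicates 1 and 2 alone gave 8 calls of 10 in microglia over both genotypes, where 952 of 9765 genes were called in either direction. Replicates 3 and 4 alone gave no call among the 7 genes tested, where 3 of 7599 genes were called, with log2 fold changes of 1.56 for H2-K1, 2.16 for H2-D1 and 0.80 for B2m. With the set as a term in the fit 9 of the 10 were called, H2-T23 being added (log2 0.77, edgeR adjusted p = 0.0412), and 1009 of 8439 genes were called in either direction. Within 1 genotype the same term raised the calls from 1 to 5 of 65 in Ch25h+/+ and from 4 to 7 of 65 in Ch25h-/-. In microglia it gave 4 of 10 in Ch25h+/+ (452 of 8439 genes were called in either direction), with H2-D1 (log2 2.06, edgeR adjusted p = 0.0343), H2-Q6 (adjusted p = 0.0487) and H2-Q7 (adjusted p = 0.0148) added to B2m. The other call in Ch25h+/+ was H2-D1 in OPC (log2 1.44, adjusted p = 0.00816), where 0.0318% of genes rose. In Ch25h-/- microglia it gave 7 of 10 (300 of 8439), with H2-D1 (2.40, adjusted p = 0.0227), H2-Q4 (2.71, adjusted p = 0.0418) and H2-T22 (1.39, adjusted p = 0.0262) added.

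Marker lists of other cells were measured in the same microglia. Summed microglia markers lay at 10027 to 14761 CPM in Ch25h+/+ Tau+ and 10565 to 14901 in Ch25h-/- Tau+, against 13874 to 16313 and 12962 to 16216 CPM in the Tau- groups. Lymphocyte markers summed to 1.20 to 22.1, 3.03 to 4.98, 4.14 to 9.99 and 0 to 7.20 CPM in the same order, with Cd3e, Cd8a, Nkg7, Trac and Trbc2 at 0 in all groups. Border-associated macrophage markers summed to 143 to 304 and 160 to 219 CPM in the Tau+ groups and 243 to 356 and 218 to 289 CPM in the Tau- groups. Endothelial markers summed to 43.2 to 74.7 and 51.5 to 81.2 against 43.0 to 86.6 and 38.2 to 77.0 CPM. Monocyte and neutrophil markers summed to 7.20 to 16.6 and 16.1 to 43.9 against 13.3 to 22.7 and 9.61 to 22.97 CPM. Their part in the result was not tested.

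The share of microglial nuclei with class I transcripts, and with several of them, was larger in most Tau+ libraries. Without thinning, a mean of 66.4% (Ch25h+/+ Tau+), 33.3% (Ch25h+/+ Tau-), 69.0% (Ch25h-/- Tau+) and 34.9% (Ch25h-/- Tau-) of nuclei had at least 1 UMI of the 10 genes. Microglia of Tau+ mice were also deeper, with library medians of 1349 to 1996 UMIs against 1072 to 1561. Each nucleus was therefore thinned to 1000 UMIs, which left out 141, 410, 187 and 290 shallower nuclei in the 4 groups. The thinned shares were 68.1, 56.0, 27.6 and 55.5% in Ch25h+/+ Tau+ and 72.1, 58.8, 40.5 and 60% in Ch25h-/- Tau+. In the Tau- groups they were 40.3, 28.6, 29.6 and 23.9% (Ch25h+/+) and 30.7, 26.5, 20.5 and 31.3% (Ch25h-/-). As for the levels, replicate 3 of Ch25h+/+ Tau+ lay within the Tau- range. Nuclei with 3 or more UMIs after thinning made up a mean of 8.71, 1.37, 14.0 and 0.605% in the 4 groups, in the order used for the unthinned shares. No test was run on these shares.

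**Figure D4:**
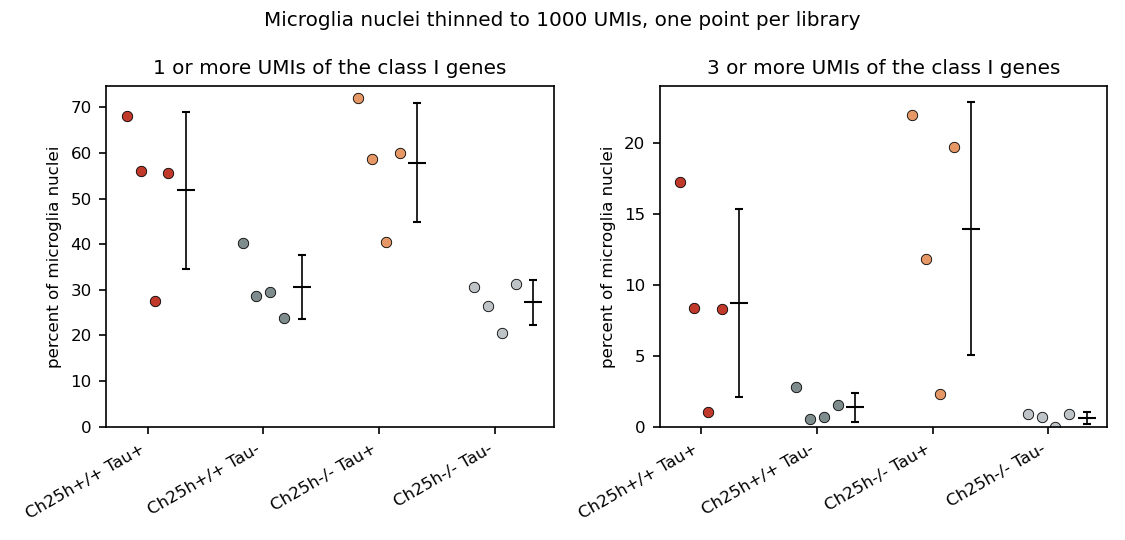
Share of microglial nuclei, thinned to 1000 UMIs each, with at least 1 UMI and with at least 3 UMIs of the 10 genes, by group, 1 point per library. Tau+ libraries lie between 27.6 and 72.1% for at least 1 UMI and Tau- libraries between 20.5 and 40.3%.

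No change with loss of Ch25h was called for these genes in any class tested. None of 65 tests (the genes that passed the count filter in 11 classes) was called by edgeR in Tau+ mice (2 at an unadjusted p under 0.05, lowest adjusted p 0.991), in Tau- mice (1, lowest adjusted p 0.657) or over both tau states (1, lowest adjusted p 0.998), and DESeq2 called 0 in each. Of all tests in these classes 0.00554, 0.00396 and 0.0119% were called, and of those in microglia 0, 0 and 0.0118%. In Tau+ microglia the fitted changes with loss of Ch25h were positive for all 10 genes, with a median log2 value of 0.30 against 0.00 over all genes, and in Tau- microglia they were positive for 3. In Tau+ microglia 0 of the 10 genes had an unadjusted edgeR p under 0.05, and each interval given here leaves room for changes in both directions. H2-K1 had a log2 change of 0.38 (95% interval -0.32 to 1.08), H2-D1 0.19 (-0.69 to 1.08), H2-Q4 0.65 (-0.26 to 1.55), B2m 0.17 (-0.20 to 0.54), Tap1 0.55 (-0.03 to 1.14) and Tap2 0.04 (-0.43 to 0.51). Ch25h itself was read in microglia of Tau+ mice alone, with 20, 5, 1 and 7 UMIs in Ch25h+/+ and 4, 1, 1 and 1 in Ch25h-/- libraries.

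The tau effect was not shown to differ between the Ch25h genotypes. The interaction gave 0 calls in 65 tests (edgeR, 3 at an unadjusted p under 0.05, lowest adjusted p 0.624), and 0 by DESeq2, where edgeR called 0% of all tests in microglia and in the 11 classes. In microglia the difference of the tau effects, Ch25h-/- minus Ch25h+/+, was 0.43 for H2-K1 (95% interval -0.78 to 1.64), 0.36 for H2-D1 (-1.28 to 1.998) and 0.25 for B2m (-0.35 to 0.85). Summed over the 10 genes, microglia stood at 865 ± 387 CPM in Ch25h+/+ Tau+, 360 ± 89.9 in Ch25h+/+ Tau-, 1085 ± 429 in Ch25h-/- Tau+ and 341 ± 66.9 in Ch25h-/- Tau- (SD, n = 4). The means of the Tau+ groups differed by less than 1 SD.

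Outside microglia, single genes rose with tau in astrocytes, oligodendrocytes and OPC by the main test. Over both Ch25h genotypes 13 of 65 tests were called, all higher in Tau+ (0.622% of all tests in these classes were called higher), the 8 in microglia and 5 in these glia. In astrocytes 3 of 8 tested genes rose (2.17% of genes did), namely H2-Q4, B2m and H2-D1. In oligodendrocytes 1 of 5 rose (0.184%), and in OPC 1 of 4 (0.159%), in both cases H2-D1. The mean levels of H2-D1 and B2m in these glia are far lower than in microglia, and the share that free RNA could account for, given after the levels, is higher. With the set of libraries that stood apart as a term, 11 tests outside microglia were called in place of 5 (0.86% of all tests in the 11 classes, microglia included, were called higher). Tap1 (log2 1.33, edgeR adjusted p = 0.0402) and H2-T23 (1.91, adjusted p = 0.0237) were added in astrocytes (5 of 8, 2.96% of genes) and H2-K1 in OPC (0.99, adjusted p = 0.0170; 2 of 4, 0.318% of genes), while oligodendrocytes kept H2-D1 alone (0.528% of genes). The other 3 added calls were in neurons and are given with them.

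H2-D1 was the gene called in all 3 of these classes. In oligodendrocytes it stood at 105, 31.2, 18.1 and 27.8 CPM in Ch25h+/+ Tau+ and 52.4, 44.7, 13.3 and 41.0 CPM in Ch25h-/- Tau+. The Tau- libraries stood at 11.1, 6.30, 9.41 and 8.69 CPM (Ch25h+/+) and 7.07, 6.51, 5.54 and 7.23 CPM (Ch25h-/-), so the tau states did not overlap, as for 0.0843% of genes. H2-D1 rose there by 2.42 on the log2 scale (SE 0.43, edgeR adjusted p = 0.0371). The call held without replicate 1 or 3 of Ch25h+/+ Tau+ or replicate 3 of Ch25h-/- Tau+, and was lost without any other library, with a log2 fold change of 2.32 to 2.51 and an adjusted p of up to 0.109.

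In OPC, H2-D1 stood at 69.5, 36.3, 32.8 and 36.9 CPM in Ch25h+/+ Tau+ and 51.2, 35.6, 33.1 and 35.2 CPM in Ch25h-/- Tau+. In the Tau- groups it stood at 19.3, 20.5, 10.0 and 12.1 CPM and at 16.3, 37.7, 17.1 and 16.4 CPM. Replicate 2 of Ch25h-/- Tau- lay within the Tau+ range, and the other Tau- libraries lay below it. The log2 fold change was 1.13 (SE 0.21, edgeR adjusted p = 0.00817), and the call was lost when UMIs expected from free RNA were subtracted (log2 0.9999, adjusted p = 0.174).

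In astrocytes, H2-D1 stood at 43.2, 26.7, 8.07 and 16.6 CPM in Ch25h+/+ Tau+ and 28.9, 12.5, 8.93 and 22.3 CPM in Ch25h-/- Tau+, against 4.90 to 9.25 and 4.90 to 13.6 CPM in the Tau- groups. Its log2 fold change was 1.40 (SE 0.34, edgeR adjusted p = 0.0333). Leaving out any 1 of 9 libraries ended this call, with a log2 fold change of 1.19 to 1.45 and an adjusted p of up to 0.0836; it held without replicate 3 or 4 of Ch25h+/+ Tau+, 1 or 2 of Ch25h+/+ Tau-, 2 or 3 of Ch25h-/- Tau+ or 1 of Ch25h-/- Tau-. Astrocytic H2-Q4 stood at 10.0, 4.39, 2.69 and 1.88 CPM in Ch25h+/+ Tau+ and 6.27, 5.43, 1.12 and 13.7 CPM in Ch25h-/- Tau+, against 0 to 1.53 and 0 to 0.978 CPM in the Tau- groups. It rose by 3.11 on the log2 scale (SE 0.58, edgeR adjusted p = 0.00701). With 10 UMIs in all Tau- astrocytes, it passed the count filter through Tau+ libraries only. Astrocytic B2m stood at 34.7, 14.5, 9.41 and 13.2 CPM and at 19.5, 24.99, 15.1 and 19.6 CPM in the Tau+ groups, against 8.30 to 13.8 and 7.61 to 9.45 CPM in the Tau- groups, and rose by 0.98 (SE 0.22, edgeR adjusted p = 0.0201). Tap1 (log2 1.40, adjusted p = 0.0521), H2-T23 (2.14, adjusted p = 0.118) and H2-K1 (0.56, adjusted p = 0.135) were not called in astrocytes without a term for the set of libraries.

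**Figure D5:**
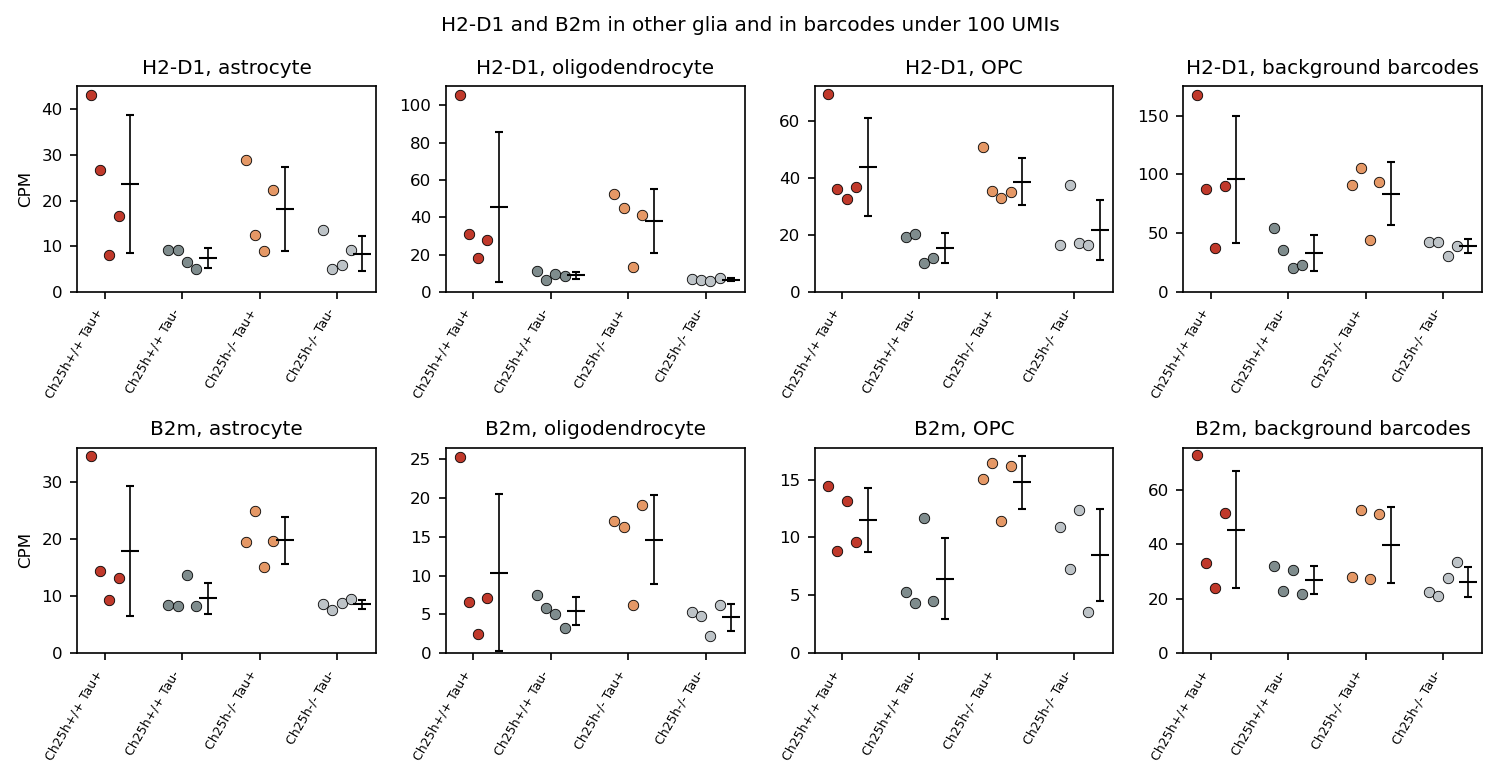
CPM of H2-D1 and B2m in astrocytes, oligodendrocytes, OPC and barcodes under 100 UMIs, by group, 1 point per library, with a bar and whiskers for the mean ± SD. Oligodendrocyte H2-D1 does not overlap between Tau+ (13.3 to 105 CPM) and Tau- libraries (5.54 to 11.1 CPM).

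The free RNA held more class I transcripts in 6 of the 8 Tau+ libraries than in any Tau- library. In barcodes under 100 UMIs the 10 genes summed to 482, 235, 126 and 252 CPM in Ch25h+/+ Tau+ and 250, 290, 141 and 279 CPM in Ch25h-/- Tau+, against 101 to 159 and 128 to 153 CPM in the Tau- groups. It could account for 21.1% of H2-D1 UMIs in oligodendrocytes, 24.9% in astrocytes and 35.9% in OPC, and for 31.0, 13.8 and 57.0% of those of B2m, and for 3.52% of the H2-Q4 UMIs in astrocytes. With these UMIs subtracted, the pooled Tau+ to Tau- ratio of H2-D1 went from 5.03 to 7.48 in oligodendrocytes, from 2.94 to 2.92 in astrocytes and from 2.20 to 1.95 in OPC. In microglia the ratios were 4.91 and 5.11 for H2-D1, 3.41 and 3.45 for H2-K1, and 2.02 and 2.03 for B2m. Refitted on the subtracted counts, the calls of H2-D1 in OPC and in astrocytes (log2 1.40, edgeR adjusted p = 0.0538) and of H2-T22 in microglia (1.01, adjusted p = 0.0532) were lost, and that of H2-D1 in oligodendrocytes stayed (3.05, adjusted p = 0.0343). Microglia markers summed to 108 to 156 and 134 to 155 CPM in oligodendrocytes of the Tau+ groups, against 72.8 to 151 and 102 to 178 CPM in the Tau- groups. In astrocytes they summed to 109 to 165 and 121 to 148 against 86.8 to 128 and 96.0 to 127 CPM, and in OPC to 162 to 177 and 145 to 171 against 127 to 202 and 113 to 165 CPM. The part of microglial RNA in these calls was not tested further.

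Border-associated macrophages, high to begin with, showed no call. None of the 4 genes tested there (H2-K1, H2-D1, H2-Q7 and B2m) was called by edgeR over both genotypes, where 0% of genes rose, with log2 fold changes of 0.32 (95% interval -0.21 to 0.85) for H2-K1, -0.14 (-0.67 to 0.39) for H2-D1, 0.39 (-0.47 to 1.24) for H2-Q7 and 0.30 (-0.29 to 0.89) for B2m. Summed levels were 1938, 1980, 1655 and 1902 CPM in Ch25h+/+ Tau+ and 2303, 2111, 1640 and 4228 CPM in Ch25h-/- Tau+. In the Tau- groups they were 2480, 1920, 1248 and 1727 CPM (Ch25h+/+) and 1506, 3083, 1260 and 2660 CPM (Ch25h-/-), and the groups overlapped. The library at 3083 CPM held 6 nuclei of this class and was left out of the fit. With 470 nuclei in all and 1149 genes tested, this class gave few genes enough counts for a test.

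In neurons the calls turned on the model. By the main test no member was called in neurons, fibroblasts or choroid plexus epithelium. All genes called there in either direction by edgeR were 16 of 16424 in CA pyramidal neurons, 11 of 15089 in granule neurons, 5 of 15028 in inhibitory neurons, 5 of 16451 in other excitatory neurons, 2 of 8929 in fibroblasts and 0 of 10642 in choroid plexus epithelium. DESeq2 called 142, 86, 10, 23, 2 and 0 genes in the same order. The members' log2 fold changes were positive in 7 of 7 tested in CA pyramidal neurons, with an unadjusted p under 0.05 for 4 (1687 of all genes), and in 6 of 6 in granule neurons, with 4 (1348 of all genes). In inhibitory and other excitatory neurons they were positive in 6 of 6 each, with 2 and 1 under 0.05 (1182 and 1369 of all genes). In choroid plexus epithelium 1 of 3 was under 0.05 (399 of all genes) and in fibroblasts 0 of 6 (577 of all genes). The median log2 fold change over all genes was 0.0015, 0.0033, 0.0018 and -1.9e-05 in CA pyramidal, granule, inhibitory and other excitatory neurons. The members were read from the same nuclei with the same free RNA, so their signs are not independent of each other.

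H2-D1 in granule neurons (log2 1.31, edgeR adjusted p = 0.0851) and B2m in CA pyramidal neurons (0.70, adjusted p = 0.102) had the lowest adjusted p there. Both were called by DESeq2 (adjusted p = 0.00111 and 0.0216), and H2-D1 also by edgeR without replicate 3 of Ch25h+/+ Tau+ (adjusted p = 0.0447) or of Ch25h-/- Tau+ (adjusted p = 0.0258). With the set of libraries that stood apart as a term, H2-D1 (0.68, edgeR adjusted p = 0.0114) and B2m (0.69, adjusted p = 0.0439) were called in CA pyramidal neurons, where 0.146% of genes rose. The same fit called H2-D1 in granule neurons (1.26, adjusted p = 0.00678), where 0.0928% rose. Free RNA, higher in most Tau+ libraries, could account for 99.3% of the H2-D1 UMIs of granule neurons, and for 46.8% of those of H2-D1 and 39.2% of those of B2m in CA pyramidal neurons. With these UMIs subtracted and no term for the set, none of the 3 was called (edgeR adjusted p = 0.294, 0.528 and 0.225). Without that term none of the 3 was called before the subtraction either, so this refit cannot tell what the subtraction alone did to the calls.

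Endothelial and mural cells were not fitted, because the main fit was run only with 3 or more libraries per group holding at least 10 nuclei of the class. Endothelial cells had 1 such library in Ch25h+/+ Tau- and 2 in Ch25h-/- Tau+, and mural cells had 2 in Ch25h-/- Tau+. Over all nuclei, where a change in cell numbers and in RNA per cell cannot be told apart, the 10 genes summed to a mean of 62.9 CPM in Ch25h+/+ Tau+, 30.5 in Ch25h+/+ Tau-, 58.1 in Ch25h-/- Tau+ and 32.8 in Ch25h-/- Tau-.

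The lists of other pathway genes are described by counts, without a test between the lists. Of 21 listed regulators 16 were tested, and 8 rose and none fell in Tau+ microglia over both genotypes, where 5.33% of genes rose. Nlrc5, the class I transactivator, rose by 2.94 on the log2 scale (SE 0.47, edgeR adjusted p = 0.00137), Stat2 by 1.29, Irf9 by 0.90 and Nfkb1 by 0.38. STAT2 and IRF9 belong to the factor that carries the signal of type I interferon. The interferon receptor subunits Ifnar1 (0.45) and Ifngr2 (0.34) and Irf8 (0.38) rose as well, while Irf1 (0.68, adjusted p = 0.0593) was not called. In astrocytes Nlrc5 (2.48), Irf9 (1.19) and Stat2 (0.98) rose of 19 regulators tested, where 2.17% of genes rose. In OPC 2 of 12 rose, Irf9 (1.81) among them, where 0.159% of genes did, and in oligodendrocytes 1 of 16, Stat2 (0.60), where 0.184% did.

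Of 11 genes of peptide generation and loading, 10 were tested in microglia and 1 rose, Psme1, a proteasome activator subunit (log2 0.79), a count near the share of 5.33% among all genes. The immunoproteasome subunits Psmb8 (0.44, edgeR adjusted p = 0.279) and Psmb9 (0.62, adjusted p = 0.0655) and tapasin, Tapbp (0.26, adjusted p = 0.386), were not called. Of 13 other heavy chains 11 were in the files and 4 were tested, and 1 rose, H2-M3 (1.23), which presents N-formylated peptides. Of 6 genes listed as receptors, 2 were tested and 1 rose, Lilrb4a (4.14), an inhibitory receptor of myeloid cells that is not known to bind class I. With so few tested, the last 2 counts were not read against the share among all genes, which is 5.33% here too. The median log2 fold change was 0.38 for the regulators and 0.21 for the loading genes. No gene of these lists was called for Ch25h loss or the interaction.

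The genes whose level over the 16 microglial libraries was most like the summed class I level were Lrguk (Pearson r = 0.958), Arhgap24 (0.955), P2rx4, a purinergic receptor (0.953), Tank, an adaptor in NF-kappaB and interferon signalling (0.952), and A930037H05Rik (0.947), of 7985 genes. The 16 libraries differ in tau state, which these values share. Over the 15 cell classes the most alike of 20516 genes were Psmb8 (0.969), Cyba (0.960), Psmb9 (0.959), Serbp1 (0.959) and 4833420G17Rik (0.959). These correlations are on log2(CPM + 1), are descriptions, and carry no test.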

How the data were processed

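Nuclear RNA of 16 hippocampi was read with the 10x Genomics 3' kit. The deposited matrices hold UMI counts per gene and barcode. Per the file headers Cell Ranger 4 wrote them, while the submitters' processing notes name Cell Ranger 3.1.0 and mm10. Whether introns were counted, and which annotation was used, is not given in the sources used here. Nuclei were filtered as stated, and probable doublets were marked with scanpy 1.11.5 (Scrublet, 0.8% expected per 1000 nuclei). With these still in, 3000 variable genes, 50 components and Leiden clustering at resolution 1 gave the classes. The doublets were then left out of the counts. Counts per library and class (10 or more nuclei) were fitted with edgeR 4.0.16 (TMM, filterByExpr, all 4 groups sharing 1 spread) in R 4.3.3, and with DESeq2 1.42.0 as an alternative. The main fits of microglia, oligodendrocytes and astrocytes were also run on simulated counts, drawn without the set of libraries that stood apart. No result of these runs is given, and they say nothing about the effect of that set. All 10 members are named in microglia. In the other classes the counts of members tested are given, with the called members and some of those not called named. Of the other pathway lists, the counts and up to 5 called genes with the lowest p are named, and further genes with a value were chosen after it was seen. The values of 1 regulator are not reported here. The members and lists were chosen with earlier results of these data known. No libraries of a group were copies of each other (chi-square per degree of freedom 7.83 to 58.2 over 24 pairs). Subtracting background UMIs was an alternative chosen after seeing the data. Coordinates are from GENCODE M21, whose IDs matched 32158 of 32285 genes.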

Additional observations from a re-analysis of the deposited data

Results flagged for a closer look

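In 3 of 40 combinations of gene and group in microglia, 1 library lay far from the other 3. The limit used flags about 1 group in 20 of normally spread values. That rate does not hold for genes with few UMIs, since 1 library with a UMI among libraries at 0 is always flagged. H2-Q7 in replicate 4 of Ch25h-/- Tau- stood at 2.41 CPM, 1 UMI, with the others at 0. H2-T22 in replicate 1 of Ch25h+/+ Tau- stood at 13.6 CPM, below the nearest at 23.3 CPM. Tap1 in replicate 3 of Ch25h-/- Tau- stood at 26.8 CPM, above the nearest at 16.8 CPM. In barcodes under 100 UMIs, which belong to no cell class and were used only to estimate free RNA, the 10 genes summed to a mean of 274 CPM in Ch25h+/+ Tau+ and 240 CPM in Ch25h-/- Tau+, above the highest Tau- library at 159 CPM.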

How the results depend on the processing

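No paired analysis was possible because the labels give no replicate numbers. Those used here follow the order of deposition, and no litter or day is given in the sources used here. Shares in brackets are those of all tests in the 11 classes called higher. In Ch25h+/+ the tau effect gave 1 call of 65 (0.154%), and 6 with DESeq2 (0.252%), 4 with no count filter (0.20%), 2 with background UMIs subtracted (0.167%), 0 with nuclei of at least 1000 UMIs (0.112%), 0 with only the 2 groups compared (0.0843%), 4 with replicates 1 and 2 alone (0.375%), 0 with replicates 3 and 4 alone (0.398%) and 5 with that split as a term (0.323%). Leaving out 1 library gave 0 to 7 (0.0277 to 0.368%), with 7 without replicate 3 of Ch25h+/+ Tau+, 3 and 2 without replicates 3 and 1 of Ch25h-/- Tau+, and 0 without any other. In Ch25h-/- it gave 4 calls (0.101%), and 8 with DESeq2 (0.311%), 1 with only the 2 groups (0.125%), 0 with replicates 3 and 4 alone (0.252%) and 7 with the split as a term (0.222%). Leaving out 1 library gave 0 to 9 (0.0344 to 0.303%), with 9 without replicate 3 of Ch25h-/- Tau+, 8, 6 and 3 without replicates 1, 3 and 4 of Ch25h+/+ Tau+, and 0 to 2 without any other. Over both genotypes it gave 13 (0.622%), and 0 with replicates 3 and 4 alone (0.517%), 20 with the split as a term (0.86%) and 9 to 19 without 1 library (0.441 to 0.824%). The interaction gave 0, and 1 with replicates 1 and 2 alone (B2m in fibroblasts, log2 2.83, edgeR adjusted p = 0.0480). In that fit Ch25h-/- Tau- was 1 library, assumed to vary like the other groups, since replicate 2 held 3 nuclei and was left out, and 0.0955% of all tests were called in either direction. Counts for Ch25h loss were 0 in each setting and 0 to 0 without 1 library. The cause of these shifts was not tested. Fewer libraries entered some fits, and the calls rose in some of these and fell in others. The log2 fold change of Tap2 in microglia over both genotypes (0.04) was -0.0019 with nuclei of at least 1000 UMIs and -0.048 with replicates 1 and 2 alone. Without 1 library it ran from -0.058 to 0.12, and the sign turned without Ch25h-/- Tau- replicate 3 (-0.058) or 4 (-0.0026), Ch25h+/+ Tau+ replicate 2 (-0.050) or Ch25h+/+ Tau- replicate 4 (-0.033). In microglia the calls of H2-K1, H2-D1, B2m, H2-Q4, H2-Q6 and H2-Q7 over both genotypes held without any 1 library, as did B2m and H2-Q4 in astrocytes and H2-D1 in OPC, whose call was lost with background UMIs subtracted (log2 0.9999, adjusted p = 0.174). Depth limits H2-Q6 and H2-Q7, with 198 and 236 UMIs in all microglia.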

Other observations

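Nuclei of microglia with at least 1 UMI of Axl, Itgax, Cst7, Lpl or Csf1, genes known to rise in microglia around damage, made up a mean of 26.7% in Ch25h+/+ Tau+, 2.81% in Ch25h+/+ Tau-, 23.6% in Ch25h-/- Tau+ and 2.53% in Ch25h-/- Tau-. By library this share was 44.9, 24.6, 2.98 and 34.4% in Ch25h+/+ Tau+ and 36.8, 29.8, 7.20 and 20.6% in Ch25h-/- Tau+, so the replicate 3 libraries with the lowest class I levels of each Tau+ group also had the lowest share. In those nuclei the 10 class I genes summed to 1066, 395, 1411 and 394 CPM in the same order. In the microglia without such a UMI they summed to 786, 359, 925 and 339 CPM. These are means over libraries, given with no test, and they rest on 3 to 12 such nuclei in each Tau- library and on 7 in replicate 3 of Ch25h+/+ Tau+. The shares are not thinned, and microglia of Tau+ mice were deeper.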
